A study of Mus musculus with 15 samples.

Results

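Transcripts of the aryl hydrocarbon receptor and of 5 genes tied to it were followed in the mouse cecum after depletion of the gut microbiome. The genes were chosen by name as Ahr, Ahrr, Cyp1a1, Cyp1b1, Tiparp and Il22ra1, which are 6 of the 45808 genes listed in the deposited table. RNA was sequenced from the emptied ceca of 15 C57BL/6 mice, labelled as 20 weeks old, of which 7 were antibiotic-induced microbiome depletion (AIMD) mice and 8 were vehicle-treated mice. AIMD mice were gavaged 2 times a day for 30 days with ampicillin, vancomycin, metronidazole, neomycin and the antifungal amphotericin B, and vehicle-treated mice were gavaged with water. All mice were male, wild type and on normal chow. Mice shared cages and were sacrificed at different times, and the study fitted time of sacrifice as a factor beside treatment. The sample labels give neither time nor cage, so the share of either in a difference could not be tested directly.

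The aryl hydrocarbon receptor (AHR) is a transcription factor held in the cytoplasm by chaperones until it binds a small aromatic ligand, such as a dietary indole or a tryptophan metabolite made by gut bacteria. It then enters the nucleus, pairs with ARNT and binds DNA at a short core motif. Cyp1a1 and Cyp1b1 encode enzymes that oxidise such ligands, Ahrr encodes a repressor that competes with AHR, and Tiparp encodes an ADP-ribosyltransferase that restrains it, so the target genes include the brakes on the pathway. In the intestine AHR is needed for innate lymphoid cells to release interleukin-22 (IL-22), and Il22ra1 encodes the IL-22-binding receptor chain on epithelial cells.

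The promoters of 4 of these genes are shown because they bear on which of them carry the core motif. Of the 6 genes, 5 were matched to a RefSeq promoter on GRCm38.p6, and Ahr was not matched. Each sequence is the 250 bases before the transcript start, read 5′ to 3′ on the strand of the gene, and capitals mark GCGTG, the core motif, or CACGC, the same letters on the other strand. The windows lie at chr9:57697363-57697612 on the plus strand for Cyp1a1, chr13:74292332-74292581 on the minus strand for Ahrr, chr3:65528197-65528446 on the plus strand for Tiparp and chr4:135727909-135728158 on the plus strand for Il22ra1.
Cyp1a1: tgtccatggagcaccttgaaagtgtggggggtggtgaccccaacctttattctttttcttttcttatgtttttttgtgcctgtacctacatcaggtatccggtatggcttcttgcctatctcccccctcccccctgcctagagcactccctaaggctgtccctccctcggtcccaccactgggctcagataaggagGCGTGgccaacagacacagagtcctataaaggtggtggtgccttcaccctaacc
Ahrr: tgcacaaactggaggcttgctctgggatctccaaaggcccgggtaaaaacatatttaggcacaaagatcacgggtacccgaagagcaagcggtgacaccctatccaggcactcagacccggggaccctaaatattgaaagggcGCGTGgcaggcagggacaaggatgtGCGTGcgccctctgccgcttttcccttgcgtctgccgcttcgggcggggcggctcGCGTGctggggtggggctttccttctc
Tiparp: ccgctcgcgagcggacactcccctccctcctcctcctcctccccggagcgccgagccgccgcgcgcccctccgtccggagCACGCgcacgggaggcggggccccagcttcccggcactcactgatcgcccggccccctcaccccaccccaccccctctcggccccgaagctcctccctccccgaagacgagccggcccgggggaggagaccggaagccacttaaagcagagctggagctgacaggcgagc
Il22ra1: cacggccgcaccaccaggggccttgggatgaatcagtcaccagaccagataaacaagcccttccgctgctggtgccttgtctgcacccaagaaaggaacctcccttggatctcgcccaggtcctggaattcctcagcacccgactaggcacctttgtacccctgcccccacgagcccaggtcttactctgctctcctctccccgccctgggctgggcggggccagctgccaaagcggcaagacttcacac
The core motif was found 3 times in the Ahrr window, beginning 107, 82 and 27 bases before the start. It was found once in the Cyp1a1 window, 54 bases before the start, once in the Tiparp window, 170 bases before it, and once in the Cyp1b1 window, 76 bases before it, and its letters were not in the Il22ra1 window. Of 32851 promoter windows of the same length, 28.2% held the motif at least once and 2.77% held it at least 3 times. The longer form TNGCGTG, with N any base, occurred once in the Ahrr window and not in those of Cyp1a1, Cyp1b1, Tiparp or Il22ra1. It occurred in 4.10% of all windows. Bases farther upstream were not searched. The GC content, which bears on how often such a motif occurs, was 53.6% in the Cyp1a1 window, 58% in Cyp1b1, 60.4% in Ahrr, 62.4% in Il22ra1 and 75.2% in Tiparp, against a median of 52.4% over all windows. A match describes letters and not a bound site.

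The levels of the 6 genes are given as FPKM, the reads of a gene divided by its length and by a scaling factor of the mouse. How that factor was set is not described. Median-of-ratios size factors of the deposited FPKM were 1.01 in every mouse, so the values were already scaled close to that method rather than by total reads. In AIMD mice Cyp1a1 was almost absent and Il22ra1 was higher than in vehicle-treated mice, whereas no change of Ahr itself was detected. Ahr, Tiparp and Il22ra1 passed the filter for testing (at least 0.5 FPKM in at least 7 mice), and Ahrr, Cyp1a1 and Cyp1b1 did not. Il22ra1 passed through its AIMD mice, all at 0.972 FPKM or more, against a median of 0.436 in vehicle-treated mice. Values were compared as log2(FPKM + 0.5) with limma, a scale that understates the change of low genes, and the threshold on the Benjamini-Hochberg adjusted p was 0.05. Of the 3 genes that passed the filter 1 was called, where 36.1% of the 11983 genes tested were called, 19.4% as higher and 16.7% as lower in AIMD mice. Of the 3 low genes, taken from the fit of all 24279 genes above 0, 1 was called, where 17.4% of these genes were called, 9.90% as higher and 7.47% as lower. These shares are near the background, so the counts are no result about the 6 genes as a group.

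**Figure D1:**
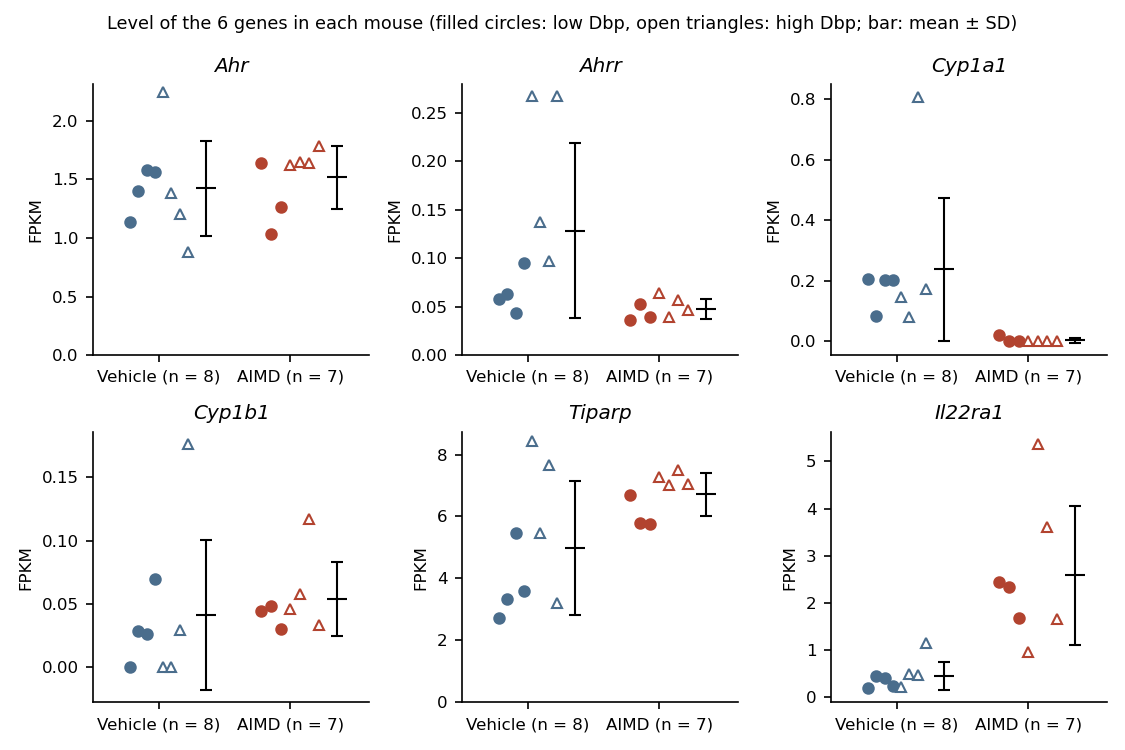
FPKM of each of the 6 genes in every mouse, with vehicle-treated mice in blue, AIMD mice in red, and the mean ± SD of each group beside the points. Filled circles are the mice with low Dbp and open triangles those with high Dbp, and each panel has its own linear axis. For Cyp1a1 every AIMD mouse lies at or below 0.0216, under the lowest vehicle-treated mouse at 0.0813, and for Il22ra1 6 of 7 AIMD mice lie above every vehicle-treated mouse.

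The FPKM proved to be whole multiples of what 1 read is worth, so the reads behind each value were recovered. AIMD mice had 8679673 to 18108580 reads on genes and vehicle-treated mice had 4372415 to 14405945, and the AIMD mice were the more deeply sequenced (means of 12408820 and 8481737, two-sided exact permutation test over mice, p = 0.0345). Vehicle replicate 8 stood apart, with the fewest reads and the highest mean log2 level of the 6 smooth muscle markers, 8.42 against 5.71 to 7.10 in the other vehicle-treated mice. The mice also fell into clusters by 12 circadian clock genes, with 3 AIMD and 4 vehicle-treated mice low in Dbp, a clock output gene, and 4 and 4 high in it. The labelled tissue held its markers, since all 11 markers of cecal epithelium passed the filter. Their mean log2 level ranged from 8.61 to 9.03 in AIMD mice and from 8.58 to 9.0 in vehicle-treated mice. Of these markers 2 were higher, 1 was lower and 8 were not called, where 36.1% of all genes tested were called. The count of these markers moved with the scaling, to 7 higher and 0 lower with each mouse scaled to equal total FPKM and 5 higher and 1 lower with quantile normalization or with the clock axis as a covariate. The cecum is a mixture of cells, so fewer cells of a type and less RNA per cell cannot be told apart.

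Ahr, the receptor, lies on chromosome 12 (chr12:35497974-35535038, minus strand, GENCODE M21 on GRCm38). Its FPKM ranged from 1.03 to 1.78 in AIMD mice, with a median of 1.64, and from 0.881 to 2.24 in vehicle-treated mice, with a median of 1.39. The groups overlapped, and both the highest and the lowest of the 15 mice were vehicle-treated. AIMD mice averaged 1.52 ± 0.268 (SD, n = 7) and vehicle-treated mice 1.42 ± 0.403 (SD, n = 8). The log2 fold change was 0.08 with a standard error of 0.14 (adjusted p = 0.670 in limma). The direction is not settled, as the value was -0.09 with the smooth muscle score as a covariate. A change of the receptor transcript was not detectable, and the means rested on 77 to 178 reads per AIMD mouse and 24 to 118 per vehicle-treated mouse.

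Among genes of the proteins that hold, carry or pair with AHR, Ptges3 fell. Of the 6 genes of this list 5 passed the filter, with 0 higher, 1 lower and 4 not called, where 36.1% of all genes tested were called, and a median log2 fold change of -0.07 against 0.01 over all genes tested. With each mouse scaled to equal total FPKM, which moves the median of all genes to 0.30, the median of the list was 0.25 and 1 gene was higher and 1 lower. Ptges3, which encodes the p23 co-chaperone of HSP90, was at 46.0 FPKM with AIMD and 88.3 with vehicle (log2 fold change -0.93, limma adjusted p = 0.000883). Of its 50-base windows 19.6% also occur in transcripts of Ptges3-ps or Gm11893, so its reads may be divided between them. Arnt, the nuclear partner of AHR, had 4.32 and 4.58 FPKM (-0.07, limma adjusted p = 0.625). Its relative Arnt2 was low but higher in AIMD mice in the fit with no filter, at 0.550 against 0.180 FPKM (0.63, limma adjusted p = 0.00348). Hsp90aa1 and Hsp90ab1, the chaperone itself, gave -0.09 and -0.05.

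Cyp1a1, the enzyme most used as a readout of AHR activity, lies on chromosome 9 (chr9:57687928-57703824, plus strand), where the start used for the promoter is inside the gene because another transcript begins upstream. It was at 0 FPKM in 6 of 7 AIMD mice, and AIMD replicate 1 had 0.0216, which is 1 read. In vehicle-treated mice it ranged from 0.0813 to 0.808, with a median of 0.188, or 2 to 14 reads. Every AIMD mouse was thus below every vehicle-treated mouse, as was so for 2.46% of the genes with at least 10 reads in all. The mean was 0.00309 ± 0.00817 (SD, n = 7) against 0.238 ± 0.236 (SD, n = 8), and the log2 fold change without a filter was -0.51 with a standard error of 0.13 (adjusted p = 0.0152 in limma). Exact permutation of the mice into all 6435 splits, two-sided, gave p = 0.000466, where the smallest possible is 0.000155.

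The size of the fall in Cyp1a1 was read from the reads. Over all mice there was 1 read among the 86861742 reads of AIMD mice and 37 among the 67853898 of vehicle-treated mice, a ratio of 0.0185 with a 95% exact interval of 0.000455 to 0.109 that covers counting error only. The deeper group thus held fewer of the reads. Vehicle replicate 7 gave 14 of the 37 reads, and without it the ratio was 0.0267 (interval 0.000648 to 0.164) and the log2 fold change -0.38 (limma adjusted p = 0.000229). A count of 0 allows up to 3 reads, or 0.0603 to 0.138 FPKM in the 6 mice at 0, and only 1 of these limits is under the lowest vehicle-treated mouse. Single mice are therefore less firmly placed than the group. limma voom on the recovered reads, chosen after the data were seen, gave a log2 fold change of -3.57 (adjusted p = 2.81e-05), and the call was lost with the number of reads per mouse as a covariate (-0.46, limma adjusted p = 0.0952). Within clock clusters the value was -0.41 among mice with low Dbp (limma adjusted p = 0.0533) and -0.60 among those with high Dbp (limma adjusted p = 0.206). Only 3.43% of its 50-base windows occur in another gene, which is Cyp1a2, and Cyp1a2 had no read in any mouse.

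**Figure D2:**
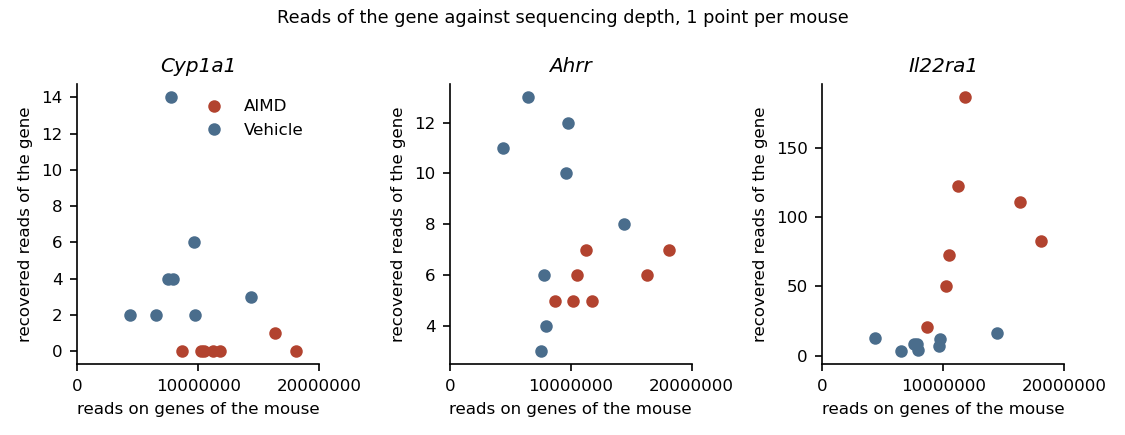
Recovered reads of Cyp1a1, Ahrr and Il22ra1 (vertical axis) against the depth of the same mouse, its reads on genes (horizontal axis), 1 point per mouse, with AIMD in red and vehicle-treated in blue. AIMD mice hold 0 or 1 read of Cyp1a1 and 5 to 7 of Ahrr, and 21 to 187 of Il22ra1, where vehicle-treated mice hold 3 to 16.

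Cyp1b1, the other CYP1 enzyme, lies on chromosome 17 (chr17:79701537-79715061, minus strand). It ranged from 0.0305 to 0.118 FPKM in AIMD mice, with a median of 0.0464, and from 0 to 0.176 in vehicle-treated mice, with a median of 0.0273. A fall like that of Cyp1a1 was not seen, as every AIMD mouse had at least 2 reads. That 3 vehicle-treated mice had none may reflect depth, since AIMD mice were the more deeply sequenced. Its log2 fold change without a filter was 0.04 with a standard error of 0.06 (adjusted p = 0.680 in limma). The ratio of pooled reads, 26 to 12, was 1.48 with a 95% exact interval of 0.721 to 3.22, so a difference was not detectable at this depth. Without vehicle replicate 8, which held 4 of the 12 reads, the vehicle mean dropped from 0.0412 to 0.0219 FPKM.

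Ahrr, the repressor, lies on chromosome 13 (chr13:74211118-74292331, minus strand). It ranged from 0.0364 to 0.0637 FPKM in AIMD mice, with a median of 0.0461, and from 0.0430 to 0.267 in vehicle-treated mice, with a median of 0.0963. The groups overlapped, but 5 of 8 vehicle-treated mice were above every AIMD mouse. The means were 0.0478 ± 0.0103 (SD, n = 7) and 0.128 ± 0.0904 (SD, n = 8), and the log2 fold change of -0.19 (standard error 0.07) did not pass the threshold (limma adjusted p = 0.0971 without a filter). The exact permutation p, not adjusted, was 0.0126.

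Whether Ahrr was called changed with the test. The 41 reads of AIMD mice and the 67 of vehicle-treated mice gave a pooled ratio of 0.418 (95% exact interval 0.276 to 0.626), and voom on the reads called it (log2 fold change -1.06, adjusted p = 0.0387, where voom called 28.0% of 17933 genes and 13.0% as lower). Vehicle-treated mice with high Dbp had a mean of 0.192 FPKM and those with low Dbp 0.0648, whereas AIMD mice had 0.0515 and 0.0429. The difference between treatments along the clock axis gave a raw p of 0.0357 in limma and an adjusted p of 0.983. With the clock axis as a covariate Ahrr was called (limma adjusted p = 0.0324). That axis was centred within the groups, so it cannot move the fold change and alters only its standard error.

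**Figure D3:**
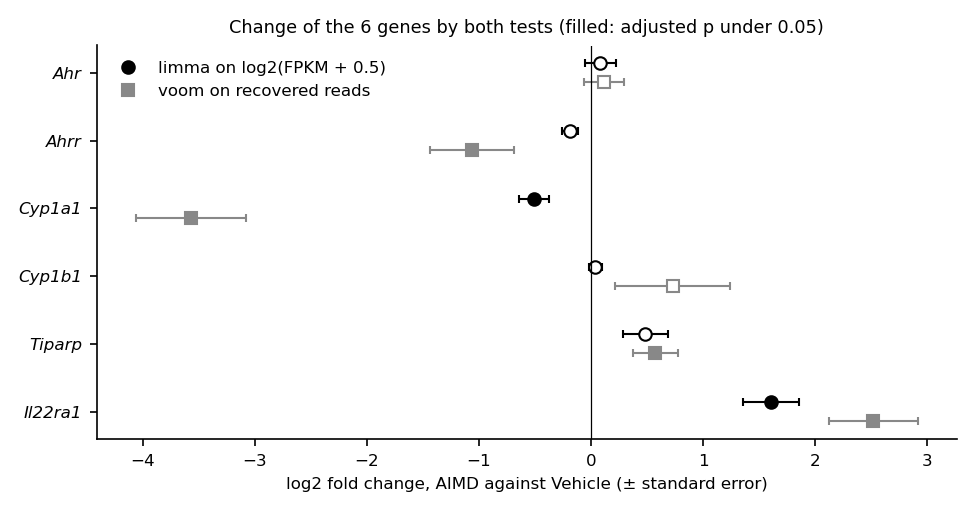
Log2 fold change of AIMD against vehicle-treated mice (horizontal axis, ± standard error) for the 6 genes, from limma on log2(FPKM + 0.5) as black circles and from voom on the recovered reads as grey squares. Filled symbols have an adjusted p under 0.05. Both tests place Cyp1a1 below 0 and Il22ra1 above 0, and only voom calls Ahrr, at -1.06, and Tiparp, at 0.58.

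Tiparp, the ADP-ribosyltransferase, lies on chromosome 3 (chr3:65528410-65555518, plus strand) and was the highest of the 6 genes in both groups. It ranged from 5.74 to 7.48 FPKM in AIMD mice, with a median of 7.00, and from 2.72 to 8.45 in vehicle-treated mice, with a median of 4.52. AIMD values lay close together, while 6 of 8 vehicle-treated mice were below all of them and 2 were above. The means were 6.72 ± 0.697 (SD, n = 7) and 4.99 ± 2.16 (SD, n = 8), and the log2 fold change of 0.48 (standard error 0.20) did not pass the threshold (limma adjusted p = 0.0678, exact permutation p = 0.0466). The mean of Tiparp was thus above that of vehicle-treated mice, where the mean of Cyp1a1, another known AHR target, was below it.

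The 2 vehicle-treated mice with the highest Tiparp were replicates 5 and 7. Without the first the adjusted p was 0.0175 and without the second 0.0293 in limma, and voom on the recovered reads gave 0.58 (adjusted p = 0.0348). With the smooth muscle score as a covariate the value fell to 0.27 (limma adjusted p = 0.347). The 6 smooth muscle markers had mean log2 levels of 4.52 to 6.48 in AIMD mice and 5.71 to 8.42 in vehicle-treated mice. Of the 6, 1 was called, Tagln at -1.17, where 36.1% of all genes tested were called. The part of muscle content in the Tiparp value was not tested beyond this. An antisense gene overlaps Tiparp but held only 93 reads in all 15 mice.

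Il22ra1, the IL-22-binding receptor chain, lies on chromosome 4 (chr4:135728172-135752140, plus strand). Its FPKM ranged from 0.972 to 5.37 in AIMD mice, with a median of 2.34, and from 0.210 to 1.14 in vehicle-treated mice, with a median of 0.436. Only AIMD replicate 4, at 0.972, and vehicle replicate 8, at 1.14, made the groups overlap. The means were 2.58 ± 1.48 (SD, n = 7) and 0.458 ± 0.302 (SD, n = 8), so that the AIMD mean was 5.65 times as high. Its log2 fold change was 1.61 with a standard error of 0.25 (adjusted p = 0.000151 in limma, exact permutation p = 0.000466). It passed the filter through its AIMD mice, and the fit with no filter gave an adjusted p of 0.000713 in limma.

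Il22ra1 kept its call in every alternative that was run. Without vehicle replicate 8 each of the 7 AIMD mice exceeded the other 7 vehicle-treated mice, and the ratio of means was 7.19. Pooled reads, 648 against 71, gave a ratio of 6.23 (95% exact interval 4.87 to 8.08), and voom gave a log2 fold change of 2.52 (adjusted p = 0.000105). It was 1.68 among mice with low Dbp (limma adjusted p = 0.000507) and 1.52 among those with high Dbp (limma adjusted p = 0.0287). With the smooth muscle score as a covariate it was 2.01 (limma adjusted p = 1.75e-05). No 50-base window of Il22ra1 occurs in another gene.

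**Figure D4:**
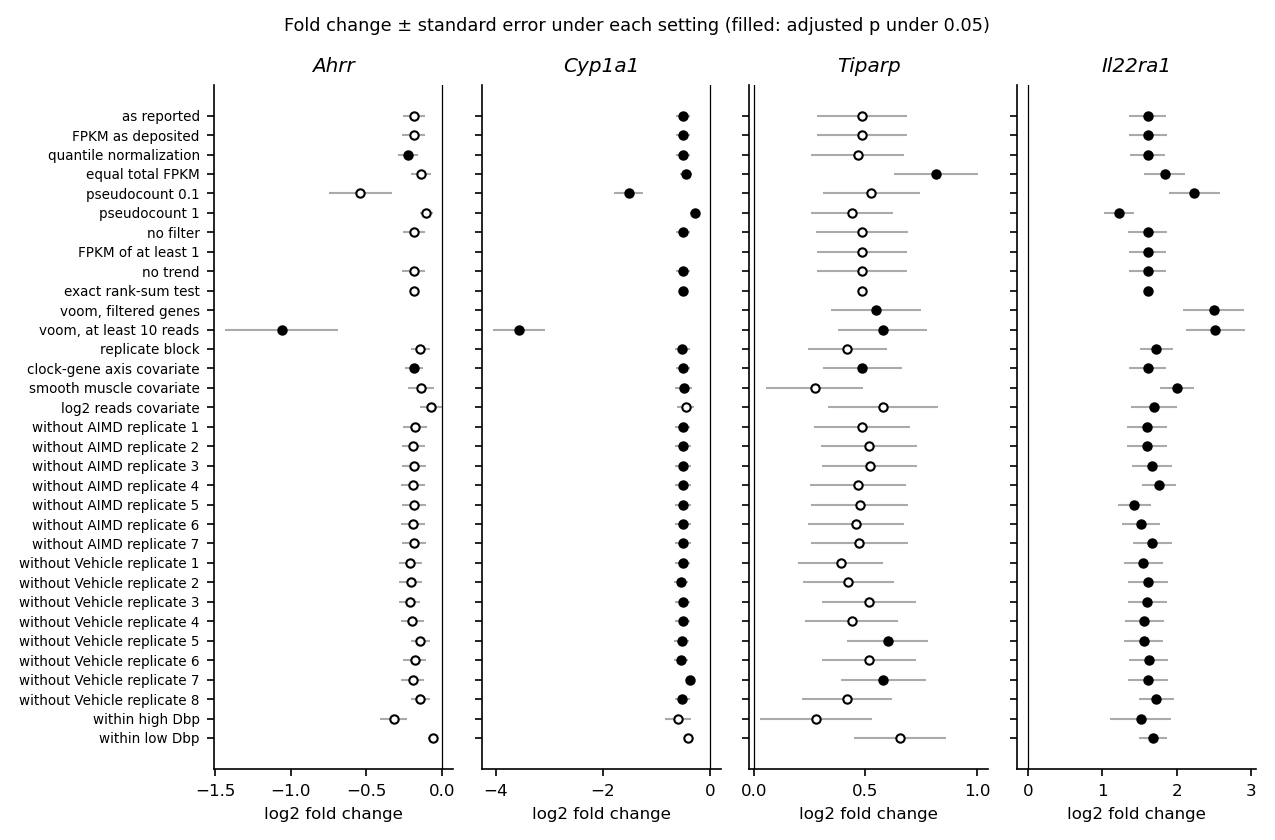
Log2 fold change (horizontal axes, ± standard error, which the rank-sum test does not give) of Ahrr, Cyp1a1, Tiparp and Il22ra1 under each setting (vertical axis), with filled circles for an adjusted p under 0.05 and no point where a setting did not include the gene. Il22ra1 is filled throughout, between 1.23 and 2.52, and Cyp1a1 lies below 0 throughout, from -3.57 to -0.29.

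In AIMD mice the order of mean FPKM was Tiparp, Il22ra1, Ahr, Cyp1b1, Ahrr and Cyp1a1. Tiparp exceeded Il22ra1, Ahr exceeded Cyp1b1 and Ahrr exceeded Cyp1a1 in 7 of 7 mice each. Il22ra1 exceeded Ahr in 5 of 7. Cyp1b1 exceeded Ahrr in only 3 of 7, so the order of these means did not hold in most mice. In vehicle-treated mice the order was Tiparp, Ahr, Il22ra1, Cyp1a1, Ahrr and Cyp1b1. Ahr exceeded Il22ra1 in 7 of 8 vehicle-treated mice and Cyp1a1 exceeded Ahrr in 5 of 8.

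Of 10 other genes of the AHR battery 6 passed the filter, with 2 higher, 1 lower and 3 not called. Of all genes tested 19.4% were higher and 16.7% lower. The median log2 fold change of the list was 0.18 against 0.01 over all genes tested. With quantile normalization, with equal total FPKM or without AIMD replicate 4 the list held 2 higher and 0 lower. Gsta1, a glutathione transferase, rose from 7.49 FPKM in vehicle-treated mice to 18.0 in AIMD mice (log2 fold change 1.25, limma adjusted p = 0.000151), though 90.5% of its 50-base windows are shared with Gsta2 and related genes, so it stands for that family. Scin, the actin-severing protein scinderin, rose from 31.4 to 54.8 FPKM (0.79, limma adjusted p = 0.000759), and no AIMD mouse was as low as any vehicle-treated mouse, which held for 5.26% of the genes tested. Nqo1, a quinone reductase, fell from 72.7 to 51.4 FPKM (-0.47, limma adjusted p = 0.0404). That call ended with quantile normalization, without AIMD replicate 4, and with equal total FPKM. Among low genes of this list, Ugt1a6a, a glucuronosyltransferase that shares exons with other Ugt1a genes, was higher without a filter at 0.650 against 0.159 FPKM (0.81, limma adjusted p = 0.000194).

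Enzymes of the kynurenine and tryptophan pathway, which make or remove AHR ligands in the host, included 1 gene that rose. Of 11 genes 6 passed the filter, with 1 higher, 0 lower and 5 not called, where 36.1% of all genes tested were called, and the median log2 fold change was 0.05 against 0.01 over all genes tested. Kyat1, a kynurenine aminotransferase that the table lists as Ccbl1, rose from 3.81 to 6.31 FPKM (0.65, limma adjusted p = 0.0155). Ido1, the first enzyme of the pathway in the gut, had 3.97 and 3.33 FPKM with AIMD and with vehicle (limma adjusted p = 0.723).

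In the rest of the IL-22 receptor pathway Jak1 and Socs3 rose and Tyk2 fell. Of 7 genes 6 passed the filter, with 2 higher, 1 lower and 3 not called, where 19.4% of all genes tested were higher and 16.7% lower, and the median log2 fold change was 0.18 against 0.01 over all genes tested. With equal total FPKM 3 were higher and 0 lower, with a median of 0.50 against 0.30. Jak1, a kinase bound to the receptor, rose from 7.52 to 12.01 FPKM (0.64, limma adjusted p = 0.00115), and Socs3, a feedback inhibitor, rose from 0.825 to 1.55 (0.61, limma adjusted p = 0.0199), a call that ended with the smooth muscle score as a covariate. Tyk2, the kinase bound to the partner chain, fell from 5.62 to 4.50 (-0.29, limma adjusted p = 0.0250), but gave 0.04 with each mouse scaled to equal total FPKM and was not called by voom on the reads. Il10rb, that partner chain, had 48.4 and 58.9 FPKM with AIMD and with vehicle (-0.29, limma adjusted p = 0.107, and 0.06 with equal total FPKM). Il22 itself had 1 read over all AIMD mice and 4 over all vehicle-treated mice, too few to compare.

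**Figure D5:**
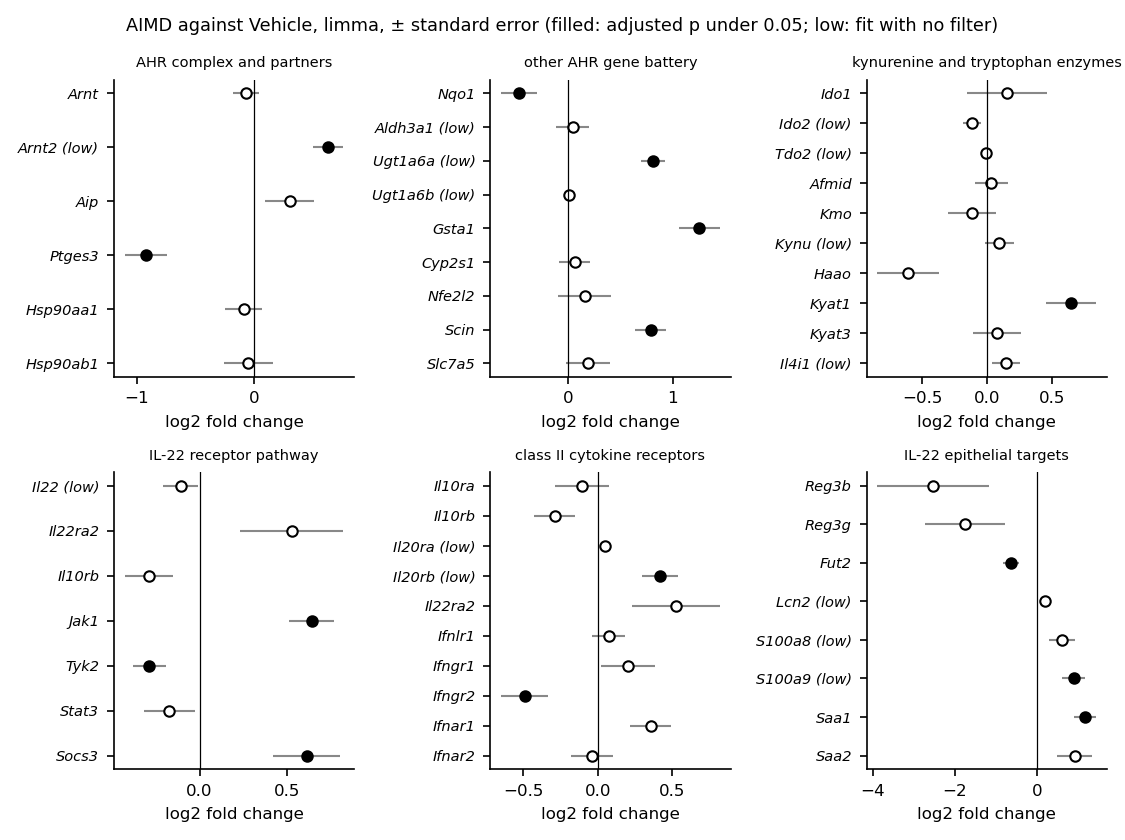
Log2 fold change of AIMD against vehicle-treated mice (horizontal axes, ± standard error) for the genes above 0 in 6 lists around AHR and the IL-22 receptor. Filled circles have a limma adjusted p under 0.05, and genes marked low are from the fit with no filter. Gsta1 (1.25), Scin (0.79) and Jak1 (0.64) lie to the right of 0, Ptges3 (-0.93) and Fut2 (-0.63) to the left.

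Among 10 other receptors of the class II cytokine family 8 passed the filter, with 0 higher, 1 lower and 7 not called, where 36.1% of all genes tested were called. The median log2 fold change was 0.02 against 0.01 over all genes tested. With equal total FPKM 4 were higher and 0 lower, with a median of 0.31 against 0.30. By voom on the reads 1 was higher, Ifnar1 (0.45, adjusted p = 0.0355), and 1 lower. There was also 1 higher with the clock axis or the log2 reads per mouse as a covariate, and with replicate number as a block. The same held without vehicle replicate 8 and without AIMD replicate 4, and in these settings 0 to 2 were lower. Il10rb and Il22ra2 are on both this list and that of the IL-22 receptor pathway. Ifngr2, a chain of the interferon-gamma receptor, fell from 178 to 126 FPKM (-0.49, limma adjusted p = 0.0234), but the call ended with equal total FPKM (-0.14) and with the log2 reads per mouse as a covariate. Il20rb, a low gene of the family, was higher without a filter, at 0.409 against 0.179 FPKM (0.42, limma adjusted p = 0.0250). The log2 fold change of Il22ra1, 1.61, lay above the highest of these, 0.53 for Il22ra2, the soluble IL-22-binding protein, which was not called (limma adjusted p = 0.174).

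Of 8 genes that IL-22 is known to induce in epithelium 5 passed the filter, with 1 higher, 1 lower and 3 not called, where 36.1% of all genes tested were called. The median log2 fold change was -0.63 against 0.01 over all genes tested. With equal total FPKM 2 were higher and 0 lower. Saa1, an acute phase protein, rose from 1274 to 3037 FPKM (1.17, limma adjusted p = 0.00288), with 31.5% of its windows shared with Saa2 and Saa3. Fut2, a fucosyltransferase of the mucosa, fell from 13.8 to 9.03 FPKM (-0.63, limma adjusted p = 0.01995), a call that ended with equal total FPKM (-0.29). Reg3b, an antimicrobial lectin, varied among mice from 1.07 to 729.9 FPKM in AIMD mice and from 4.22 to 1013 in vehicle-treated mice and was not called (limma adjusted p = 0.156). Without AIMD replicate 4 both Reg3b and its relative Reg3g were called as lower, so that the list held 1 higher and 3 lower. S100a9, a calprotectin subunit and a low gene of this list, was higher without a filter at 0.746 against 0.0921 FPKM (0.90, limma adjusted p = 0.0381), with 31 reads over all AIMD mice and 4 over all vehicle-treated mice, but was not called by voom on the reads, with the smooth muscle score or the log2 reads per mouse as a covariate, or without vehicle replicate 8.

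Of 6 markers of group 3 innate lymphoid cells, the main makers of IL-22, 2 passed the filter, with 0 called. Il1r1, 1 of these, was called as higher with equal total FPKM, with the clock axis as a covariate and without AIMD replicate 4. Among those under the filter, Il7r, an IL-7 receptor chain that T cells also carry, was higher in AIMD mice without a filter, at 0.752 against 0.184 FPKM (0.84, limma adjusted p = 0.00531), and kept this call in the 12 settings compared. Ccr6, a chemokine receptor, was also higher, with 33 reads over all AIMD mice and 4 over all vehicle-treated mice (0.36, limma adjusted p = 0.0322), a call that ended with the smooth muscle score or the log2 reads per mouse as a covariate and with the replicate block. The mean log2 level of the 2 that passed ranged from 2.79 to 3.26 in AIMD mice and from 2.57 to 3.02 in vehicle-treated mice. Immune cell markers gave 0 higher and 1 lower of 7, fibroblast markers 1 higher and 1 lower of 6, and endothelial markers 0 called of 4, where 36.1% of all genes tested were called. With equal total FPKM the immune markers gave 2 higher and 0 lower. None of the markers was at 0 in all mice. Their part in the values of the 6 genes was not tested.

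The genes whose log2 values were most like those of a member, centred within the groups over 15 mice, were named without a test. For Il22ra1 these included B4galnt3 (Pearson r = 0.91) and Rab3gap2 (0.91). For Tiparp they were Kif5b (0.98), Mtm1 (0.97) and Map4k3 (0.96), and for Ahr Trappc6b (0.90), Scyl3 (0.89) and Clint1 (0.88), out of 11109 genes compared for each. The points share libraries, depth and clock phase.

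Within groups, 6 relations among Ahr, Tiparp and Il22ra1 were computed. The strongest was between Ahr and Tiparp in the 7 AIMD mice, with Pearson r = 0.88 (exact permutation p = 0.0331, adjusted 0.199) and Spearman rho = 0.57 (exact permutation p = 0.200, adjusted 0.535). Without the 2 mice farthest from the median of Ahr r was -0.12, so the relation rests on these mice. In the 8 vehicle-treated mice r was 0.59 for the same pair (exact permutation p = 0.121, adjusted 0.242, rho = 0.60 with exact permutation p = 0.132, adjusted 0.535, and r = 0.05 without the 2 mice).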

How the data were processed

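Poly-A RNA of mouse cecum was sequenced as stranded 50-base single reads. STAR alignment to GRCm38 and featureCounts on GENCODE genes were run by the authors (versions not given in the sources used here). They deposited FPKM, and how counts became FPKM is not described. Of 45808 genes, 27 symbols had become dates and 4 rows with repeated symbols were left out. All 24279 genes above 0 (100%) gave whole reads within 0.005 reads, and the GENCODE M21 exon length did so for 67.3%. Median-of-ratios size factors (13594 genes, 1.01 in every mouse) divided the FPKM, and log2(FPKM + 0.5) was fitted in limma 3.58.1 under R 4.3.3 (lmFit, eBayes, trend), two-sided, with Benjamini-Hochberg adjustment. The 3 members under the filter took their values from the fit with no filter. limma voom with trimmed mean of M values scaling on recovered reads was the count test. Exact permutation tests used all 6435 splits. The rest was done in Python 3.11.15 (scipy 1.17.1, numpy 2.4.6, matplotlib 3.10.9, pandas 2.3.3). Nothing ties the samples to litters or cages, so p-values measure the spread between these mice. Pooled read ratios were scaled by the depth that the FPKM of each mouse imply and not by its total reads. Intervals and limits of 0 counts cover counting error only. Named list genes were mainly those called with the largest change. Beside them were Arnt, Nqo1, Il22, Il10rb, Ido1, Hsp90aa1, Hsp90ab1, Il22ra2 and Reg3b, of which the last 5 were chosen after their values were seen. Genes named only for an alternative setting that called them, such as Il1r1 and Reg3g, were also chosen after their values were seen. The members and lists were chosen with earlier results of these data known. Methods were tested on simulated data. Alternatives were other scalings, pseudocounts, filters, tests, covariates and mice left out; voom over genes with at least 10 reads, fits within clock clusters and the clock interaction were added after the data were seen. A gene under the rule for likeness is not reported here.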

Additional observations from a re-analysis of the deposited data

Results flagged for a closer look

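In 12 groups of values (6 genes in AIMD and vehicle-treated mice), 5 values lay far from the rest of their group by Dixon's ratio. For normally distributed values chance marks about 1 group in 20. The FPKM were taken untransformed and their distribution was not tested, so the rate for these groups is not known. It does not apply to the low counts of Cyp1a1 and Cyp1b1. Il22ra1 was 1.14 FPKM in vehicle replicate 8, the next vehicle-treated mouse being at 0.497. Cyp1b1 was 0.176 in vehicle replicate 8 and 0.118 in AIMD replicate 6. Cyp1a1 was 0.808 in vehicle replicate 7, the next being at 0.206, and 0.0216 in AIMD replicate 1, the only AIMD mouse with a read, so that the ratio is fixed at 1 for any single read. Vehicle replicate 8 held 2 of the 5 values; it had the fewest reads and the highest smooth muscle score, and their part in these values was not tested. The Cyp1b1 and Cyp1a1 values rest on 1 to 14 reads.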

How the results depend on the processing

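Il22ra1 kept its direction and its call under all 32 alternatives, and Cyp1b1 and Ahrr kept their directions under all of theirs. With other filters, no trend, the rank-sum test or the clock-gene axis the fold change cannot move, so these bear only on the call. The Ahr value turned to -0.088 with the smooth muscle score as a covariate and to -0.093 within the mice low in Dbp (limma adjusted p = 0.665 and 0.746). Ahrr was called at -0.23 with quantile normalization, at -0.19 with the clock-gene axis as a covariate and at -1.06 with voom over genes with at least 10 reads. Cyp1a1 lost its call at -0.46 with the log2 reads per mouse as a covariate, at -0.60 within the mice high in Dbp and at -0.41 within those low in Dbp. The fits within clusters have fewer mice, and for the covariate the cause was not tested. Tiparp was called at 0.82 with equal total FPKM (median of all genes 0.30), and at 0.55 and 0.58 with voom over the filtered genes and over genes with at least 10 reads. The cause was not tested. It was also called with the clock-gene axis, which leaves the value at 0.48 by construction, with a standard error of 0.18 against 0.20. The number of the 6 genes called, 2 as reported, was 4 with voom over genes with at least 10 reads, 4 with the clock-gene axis, 1 with the log2 reads per mouse, 1 within either clock cluster, and 1 with a filter of FPKM of at least 1, under which 3 of the genes were not tested.

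Leaving out single mice, log2 fold changes lay between 0.02 and 0.16 for Ahr, -0.21 and -0.14 for Ahrr, -0.55 and -0.38 for Cyp1a1, 0.01 and 0.09 for Cyp1b1, 0.39 and 0.60 for Tiparp, and 1.43 and 1.76 for Il22ra1, and 2 to 3 genes were called. Tiparp was called without vehicle replicate 5 (0.60) and without vehicle replicate 7 (0.58).

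The replicate numbers did not pair the mice, since the correlations of deviations of same-numbered mice ran from -0.35 to 0.43 and 1 of 7 AIMD mice correlated best with its own number. With a replicate block, in which vehicle replicate 8 has no partner and drops out, the values were 0.02 for Ahr, -0.14 for Ahrr, -0.52 for Cyp1a1, 0.09 for Cyp1b1, 0.42 for Tiparp and 1.73 for Il22ra1, with 2 genes called. Depth limits Ahrr, Cyp1a1 and Cyp1b1, which had at most 14 reads in any mouse.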
